A study of Mus musculus with 8 samples.

Results

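The 8 genes described here are Plppr1, Plppr2, Plppr3, Plppr4 and Plppr5, which encode the phospholipid phosphatase-related proteins of neurons, and Plpp1, Plpp2 and Plpp3, which encode the related phospholipid phosphatases. The family was chosen by measured values: Plppr1 had the largest positive difference between the groups of all 18193 genes in this same comparison, and its relatives were added by name. The members' differences between the groups are therefore given as a description, with standard errors, and counts of members past the limma test are printed without anything being read from them. All 8 genes had at least 1 probe set that the platform annotation assigns to that gene alone, 18 probe sets in all among 45037. Total RNA of mouse trigeminal ganglia, the ganglia that hold the cell bodies of the facial sensory neurons, was hybridised to 8 Affymetrix mouse expression arrays. Of these, 4 came from control mice and 4 from mice that carry a daDREAM transgene, titled tg16. DREAM is a repressor of transcription that senses calcium and is encoded by Kcnip3, and daDREAM is an altered form made to stay active. Adult males of a C57B/6XCBA background are given for both groups. The promoter that drives the transgene, the cells that express it, the exact age, and whether animals were pooled are not stated in the labels, and a single transgene tag stands for all transgenic samples. Replicates are labelled biological. The p-values below set each difference between the groups against the spread between arrays within the groups.

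Phospholipid phosphatases sit in cell membranes and remove the phosphate from bioactive lipids such as lysophosphatidate and sphingosine 1-phosphate, which otherwise signal through G protein-coupled receptors. The phospholipid phosphatase-related proteins share their multi-pass fold but lack residues needed for catalysis. They are found mainly in neurons. Plppr1 and Plppr5 are known for inducing filopodia and neurite growth, Plppr3 for axonal filopodia and branching, and Plppr4 for tuning lysophosphatidate signalling at excitatory synapses.

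RefSeq promoter sequence (GRCm38.p6) was matched for 7 of the 8 genes and Plpp1 is named only. It is shown for Plppr1 and Plpp3, the genes with probe sets past the test below, and for Plppr4, which held the most copies of the searched motif. The motif was GTCA, the core of the DNA element that DREAM binds, on either strand (TGAC on the other strand), in the window from 250 bases before to 50 bases after each gene's start. Each line gives the 250 bases before the start, 5′ to 3′ on the gene's strand, with matches in capitals. Plppr1 lies on the plus strand at chr4:49059212-49059461, Plpp3 on the plus strand at chr4:105157097-105157346 and Plppr4 on the minus strand at chr3:117360877-117361126.
Plppr1: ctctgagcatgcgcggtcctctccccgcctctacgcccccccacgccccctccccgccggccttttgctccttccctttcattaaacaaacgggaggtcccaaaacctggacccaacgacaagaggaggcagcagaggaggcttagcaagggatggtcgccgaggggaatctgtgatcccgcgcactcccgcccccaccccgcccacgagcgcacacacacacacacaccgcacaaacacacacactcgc
Plpp3: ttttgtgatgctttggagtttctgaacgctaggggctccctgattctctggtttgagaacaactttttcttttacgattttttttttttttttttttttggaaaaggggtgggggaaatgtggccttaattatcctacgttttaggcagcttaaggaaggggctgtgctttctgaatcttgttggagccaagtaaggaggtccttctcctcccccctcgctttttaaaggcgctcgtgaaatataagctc
Plppr4: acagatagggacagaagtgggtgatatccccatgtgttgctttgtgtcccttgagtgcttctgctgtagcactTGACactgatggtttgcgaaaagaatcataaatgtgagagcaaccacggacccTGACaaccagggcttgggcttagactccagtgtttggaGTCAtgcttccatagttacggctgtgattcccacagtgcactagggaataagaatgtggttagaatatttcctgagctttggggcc

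The windows of Plppr1, Plpp3 and Plppr2 held no match. Those of Plppr3 held 1, Plppr5 and Plpp2 2 each and Plppr4 3, whose first bases lie 177, 124 and 86 bases before the start. Of all 32851 RefSeq promoter windows, 85.2% held at least 1 match. These are matches of letters only. The printed Plppr1 sequence is 64.4% G and C, that of Plpp3 42.4% and that of Plppr4 48.0%, against a median of 52.4% over all windows.

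Values are log2 RMA expression values, so a difference of 1 is a 2-fold change. No detection calls were used, and a probe set is called dim where it lies below the 25th percentile of its array, which was 5.68 to 5.82. Sensory neuron markers were bright and alike: the log2 of their summed signal was 16.35 to 16.50 on control and 16.45 to 16.53 on transgenic arrays over 11 of 12 listed markers, of which 0 passed limma (0 at an unadjusted p under 0.05); over all genes 364 passed at an adjusted p under 0.05. Of 7 measured markers of satellite glia and Schwann cells 0 passed limma as well (16.07 to 16.16 and 16.06 to 16.23), with 1 at an unadjusted p under 0.05. Of 6 of endothelium and fibroblasts 0 passed limma (13.73 to 14.25 and 13.34 to 14.28), with 2 at that unadjusted p. The central nervous system list differed more, with 12 of 12 markers higher in transgenic ganglia, 1 past limma and 8 at an unadjusted p under 0.05. Its summed signal was 12.50 to 13.43 in control and 13.45 to 13.92 in transgenic ganglia, and none of its 12 markers was dim on all arrays. Skeletal muscle markers (8, all with a lower transgenic mean) read 9.53 to 11.22 and 9.42 to 9.52. Their signal was highest on control replicates 1 and 3 (11.19 and 11.22). Pituitary markers (6, all with a higher transgenic mean and only Fshb dim on all arrays) read 10.18 to 12.67 and 9.93 to 14.18. Of both lists 0 passed limma, with 4 and 0 at an unadjusted p under 0.05. In bulk tissue, fewer cells of a type and less RNA per cell cannot be told apart. Control replicates 3 and 4 and transgenic replicate 4 read Xist at 10.20, 11.72 and 11.51 against 6.10 to 6.49 on the other arrays, which goes against the label of male animals. These 3 arrays were not alike in their Y-linked signal: Eif2s3y read 8.40, 7.16 and 4.46 and Kdm5d 6.44, 4.79 and 3.80, against 8.74 to 9.04 and 6.55 to 7.12 on the other arrays. Of the 5 sex-linked genes listed 4 were measured, and 0 passed limma (0 at an unadjusted p under 0.05). Without those 3 arrays the difference was 2.78 at Plppr1 1436733_at, the probe set described next. The part of these arrays in the results was not tested. Kcnip3 read 10.10 to 10.42 on control and 10.16 to 10.31 on transgenic arrays at its brighter probe set. The labels do not say whether that probe set can read the transgene's RNA, so it checks no label.

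Plppr1 was higher on every transgenic array than on any control array at 3 of its 4 probe sets. Probe set 1436733_at, which represents the gene, read 6.08, 6.06, 6.30 and 5.80 on the control arrays (replicates 1 to 4) and 8.90, 8.76, 8.90 and 8.88 on the transgenic arrays. The transgenic values lay close together, and the lowest of them was far above the highest control value. Its mean was 6.06 ± 0.20 (SD, n = 4) in control and 8.86 ± 0.07 (n = 4) in transgenic ganglia, which differ by 2.80 (SE 0.10), or 6.96-fold. Control replicate 4 was dim at this probe set and the other control values lay not far above the dim range, so the fold is set against a group near the bottom of the scale.

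The other Plppr1 probe sets gave smaller differences. Probe set 1436734_at read 5.14, 5.72, 5.99 and 4.99 in control and 7.47, 7.21, 7.29 and 7.28 in transgenic ganglia (3.61-fold, or 1.85 with SE 0.19). Control replicates 1, 2 and 4 were dim there, so this fold is likewise set against a mostly dim group. The control values spread over a full log2 unit, while the transgenic values were tight. Probe set 1439731_at read 5.30, 5.01, 5.15 and 5.09 against 5.68, 5.62, 6.00 and 5.70 (difference 0.61, SE 0.10), so all its control values and part of its transgenic values were dim. The remaining one, 1446557_at, read 5.84 to 5.94 in control and 5.74 to 5.89 in transgenic ganglia (difference -0.05, SE 0.07), and its groups overlapped. The part of the Plppr1 transcript that each probe set reads was not analysed here.

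**Figure D1:**
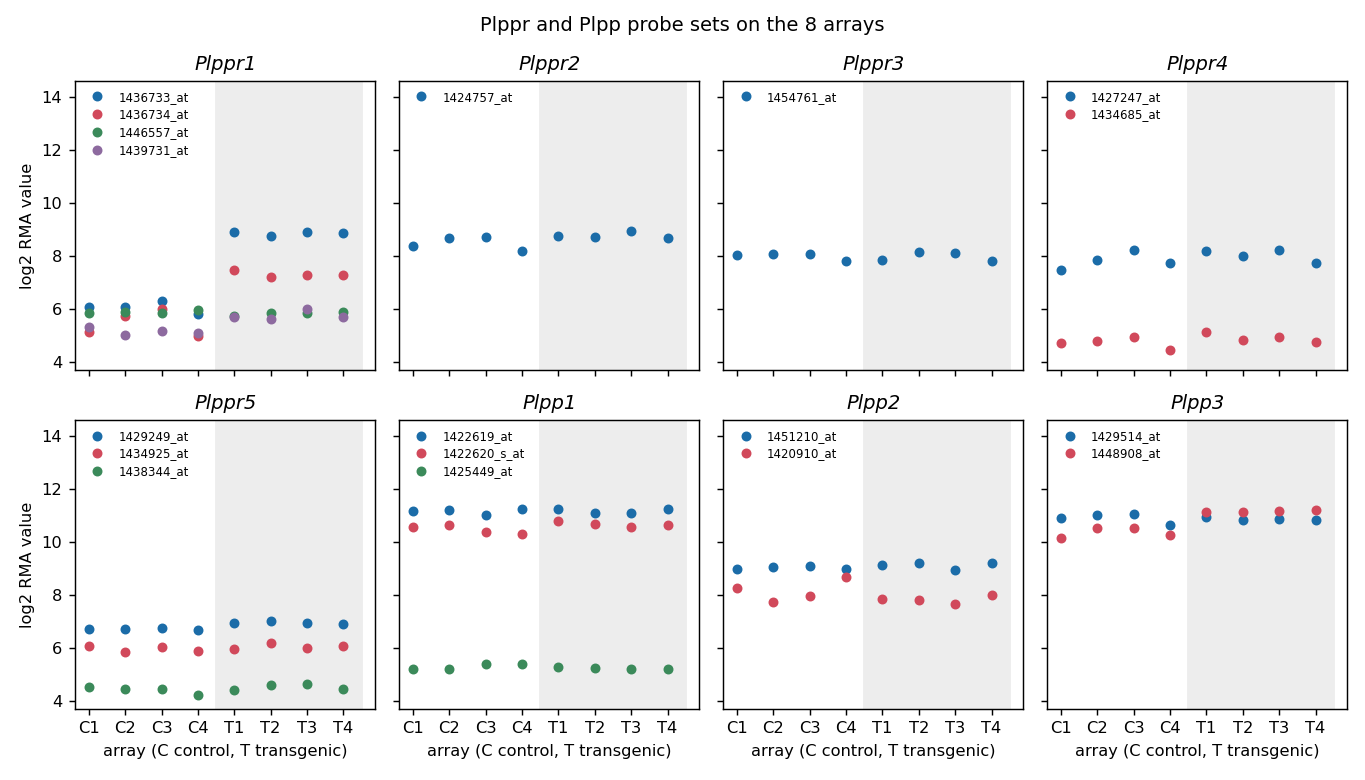
Log2 RMA values of the 18 probe sets of the 8 genes on 4 control (C) and 4 transgenic (T, shaded) arrays, 1 panel per gene and 1 point per array. At Plppr1 probe set 1436733_at the transgenic points lie at 8.76 to 8.90 and the control points at 5.80 to 6.30, while at Plpp3 only 1448908_at separates the groups.

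The genes of the 4 other related proteins differed less between the groups, by at most 0.29 at any probe set. Plppr5, whose protein also induces filopodia, read 6.71, 6.72, 6.74 and 6.67 in control and 6.95, 7.00, 6.95 and 6.91 in transgenic ganglia at its brightest probe set. These groups did not overlap, and the difference was small, 0.24 (SE 0.06). Its other probe sets overlapped, with differences of 0.10 (SE 0.08) and 0.11 (SE 0.08), and the dimmer of them read 4.23 to 4.62 throughout.

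Plppr4, the synaptic member, read 7.46, 7.86, 8.23 and 7.72 in control and 8.18, 8.00, 8.21 and 7.72 in transgenic ganglia (difference 0.21, SE 0.15). The groups overlapped, and the difference moved with single arrays: it was 0.09 without control replicate 1, 0.35 without control replicate 3 and -0.02 without control replicates 1 and 4. Its second probe set was dim on all 8 arrays, at 4.46 to 5.14.

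Plppr2, a member whose function is less studied, has 1 probe set, which read 8.37, 8.66, 8.70 and 8.18 in control and 8.76, 8.73, 8.92 and 8.66 in transgenic ganglia. The difference was 0.29 (SE 0.12), and transgenic replicate 4 overlapped with the control arrays. Without control replicates 1 and 4, the arrays lowest in Gfap, it was 0.09. Plppr3, the axonal member, read 8.04, 8.06, 8.08 and 7.80 against 7.86, 8.14, 8.11 and 7.82 (difference -0.01, SE 0.10), and its groups covered nearly the same range.

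Among the lipid phosphatases proper, Plpp3 differed between its 2 probe sets. Plpp3 degrades extracellular lysophosphatidate and sphingosine 1-phosphate and is abundant in astrocytes and endothelium. Probe set 1448908_at read 10.14, 10.51, 10.52 and 10.26 in control and 11.12, 11.12, 11.17 and 11.22 in transgenic ganglia. Every transgenic value exceeded every control value, with a mean of 10.36 ± 0.19 (n = 4) against 11.16 ± 0.05 (n = 4), a difference of 0.80 (SE 0.09, 1.74-fold). Probe set 1429514_at read 10.91, 11.00, 11.05 and 10.64 in control and 10.94, 10.81, 10.85 and 10.83 in transgenic ganglia (difference -0.04, SE 0.09). There the transgenic values lay within the control range. This probe set has the higher mean over all arrays and so represents Plpp3 in the gene counts. Neither probe set was dim on any array.

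Gfap, the astrocyte filament, read 8.63, 10.20, 10.22 and 8.29 in control and 10.78, 10.89, 11.24 and 10.77 in transgenic ganglia, and the astrocyte water channel Aqp4 10.41 to 11.07 and 11.25 to 11.56. Aqp4 was the central nervous system marker past the test (difference 0.76, limma adjusted p = 0.0173), while Gfap gave an adjusted p of 0.0660. Both markers were higher on every transgenic array than on any control array. So were Plpp3 1448908_at and Plppr1 1436733_at, 1436734_at and 1439731_at, but not Plpp3 1429514_at or Plppr1 1446557_at. Plppr1 was chosen for its difference. At every other marker of the central nervous system list the groups overlapped. Among these were Slc1a2 (difference 0.12, limma adjusted p = 0.84) and Slc1a3 (0.20, adjusted p = 0.214). Leaving out control replicates 1 and 4, the differences were 0.64 at Plpp3 1448908_at, 2.68 at Plppr1 1436733_at and 1.46 at Plppr1 1436734_at. On control replicates 2 and 3 Gfap read 10.20 and 10.22, still below every transgenic array. Aqp4 was lowest on control replicate 2 (10.41), which was kept. The part of the central nervous system markers in the differences of the family probe sets was not tested.

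Plpp1, a broadly expressed phosphatase of the cell surface, read 11.03 to 11.24 in control and 11.09 to 11.26 in transgenic ganglia at its brightest probe set (difference 0.02, SE 0.08). Its second probe set, whose suffix marks probes that can also bind related transcripts, read 10.30 to 10.64 and 10.57 to 10.80 (difference 0.20, SE 0.09), and the third was dim on all arrays. Plpp2, a phosphatase that acts on the same lipids, read 8.99 to 9.10 and 8.95 to 9.21 (difference 0.08, SE 0.08). Its other probe set read 8.26, 7.72, 7.96 and 8.67 against 7.83, 7.79, 7.66 and 8.01 (difference -0.33, SE 0.17). That lower mean rests on control replicates 1 and 4, without which the difference was -0.02.

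Counted over the family, 4 of 18 probe sets passed limma at an adjusted p under 0.05, all higher in transgenic ganglia: 3 of Plppr1 and Plpp3 1448908_at. Over all 45037 probe sets 2.74% passed. The groups did not overlap at 5 of the 18 (the same 4 and Plppr5 1429249_at), against 11.0% of all probe sets. Because this contrast chose the family, nothing is read from either share. By gene, with each gene taken at its brightest probe set, only Plppr1 of the 8 passed. The median difference was 0.14 over the 8 genes and 0.00 over all genes.

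**Figure D2:**
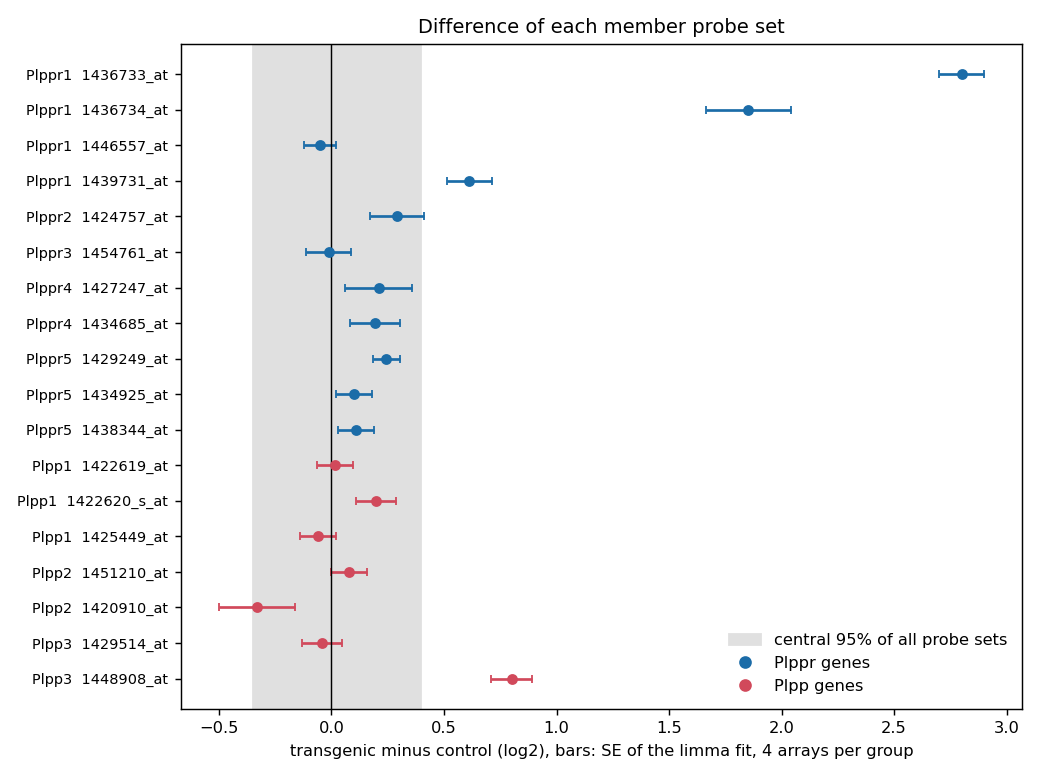
Transgenic minus control difference (log2) of each of the 18 probe sets with its standard error (4 arrays per group); the grey band holds the central 95% of all 45037 probe sets, -0.35 to 0.40. Only 3 Plppr1 probe sets (2.80, 1.85 and 0.61) and Plpp3 1448908_at (0.80) lie beyond the band.

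The control arrays differed among themselves, and these same values enter the transgenic minus control differences above. After the values were seen, the probe sets at which control replicates 1 and 4 both lay below control replicates 2 and 3 were counted, the order that Gfap shows. They were 9 of the 18 family probe sets, against 17.7% of all probe sets. The gap between the 2 pairs was clear at Plppr1 1436734_at (5.14 and 4.99 against 5.72 and 5.99), at Plppr2 (8.37 and 8.18 against 8.66 and 8.70) and at Plpp3 1448908_at (10.14 and 10.26 against 10.51 and 10.52). At Plppr5 1429249_at it was hardly visible. The nearest values of the 2 pairs also lay close at Plppr3 (8.04 and 8.06) and Plpp2 1451210_at (8.99 and 9.07). The same held for Plpp3 1429514_at (10.91 and 11.00) and for Plppr4 1434685_at (4.70 and 4.77), which was dim on all arrays. Plppr1 1436733_at did not show the order (6.08 and 5.80 against 6.06 and 6.30). Plpp2 1420910_at showed the reverse (8.26 and 8.67 against 7.72 and 7.96). Of the 9, 6 belonged to Plppr genes (of 11 probe sets) and 3 to Plpp genes (of 7). Probe sets of 1 gene are not independent. Of the other central nervous system markers, Cbln1, Zic1, Slc17a7 and Hoxb5 showed the order of Gfap. Aqp4 did not (10.65 and 10.43 against 10.41 and 11.07), nor did Slc1a2, Slc1a3, Mog, Neurod1, Gabra6 and Olig2. Gfap thus does not stand for the whole list, and whether the central nervous system signal had a part in this order was not tested.

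**Figure D3:**
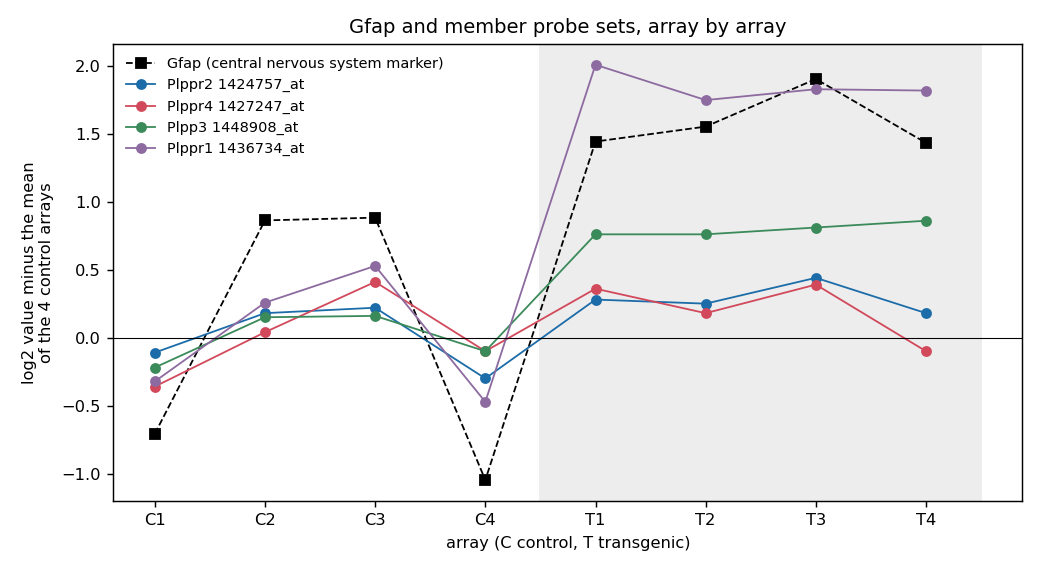
Log2 values of Gfap and of 4 family probe sets on each array, minus the mean of the 4 control arrays of that probe set; lines join the points of 1 probe set and imply no order, and transgenic arrays are shaded. The 4 family probe sets are among those with control replicates 1 and 4 (C1, C4) below the other control arrays. C1 and C4 lie below the control mean for all 5, which for the family probe sets goes with that choice. Plppr1 1436734_at and Plpp3 1448908_at are higher on every transgenic array. Several other central nervous system markers, Aqp4 among them, do not share the order of the control arrays that Gfap shows.

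The genes that flank the family on the chromosomes mostly differed little between the groups. RefSeq gene order gave the 10 measured genes on each side of every member, 138 different genes once the members were left out. Of these, 1 passed limma (0.725%), against 2.00% of all genes. Among the 20 around Plppr1, on chromosome 4, it was Smc2os, the 10th gene to the right, annotated as an antisense transcript. It read 5.01 to 5.49 in control and 4.22 to 4.34 in transgenic ganglia (difference -0.91, SE 0.11, adjusted p = 0.000731), dim in all 8 arrays. The other 19 ranged from -0.15 to 0.33 and did not pass, including the muscle protein gene Cavin4 (0.03) and the acyltransferase gene Acnat2 (-0.10), which flank Plppr1 directly. Among the 20 around Plpp3, also on chromosome 4, the range was -0.18 to 0.28. Plppr4 and Plppr5 are direct neighbours on chromosome 3, and the 19 other genes around each ranged from -0.22 to 0.16. Without control replicate 2, 3 neighbouring genes passed.

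**Figure D4:**
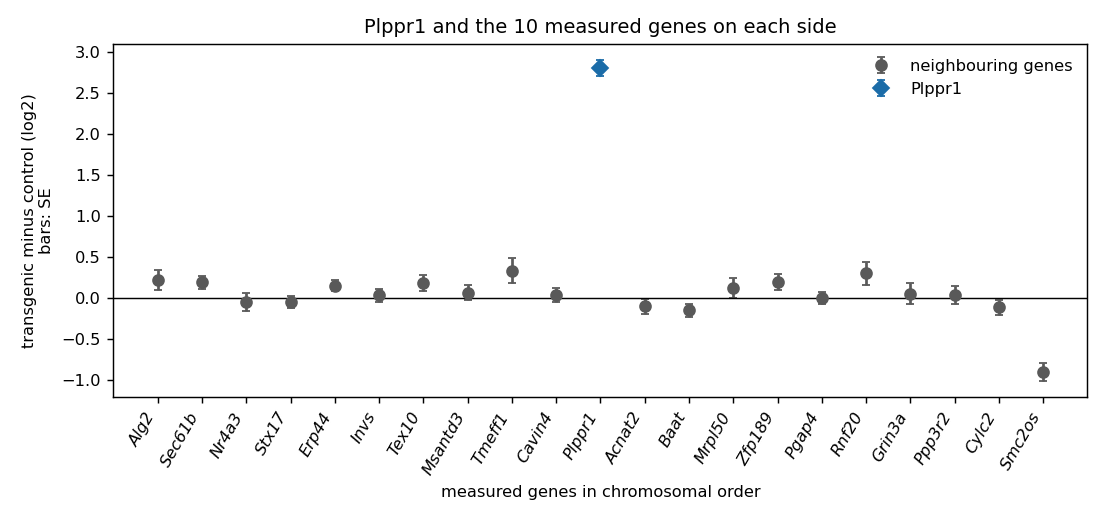
Transgenic minus control difference (log2, bars are SE, 4 arrays per group) of Plppr1 and of the 10 measured genes on each side in chromosomal order, evenly spaced. Plppr1 stands at 2.80, 19 neighbours lie between -0.15 and 0.33, and Smc2os lies at -0.91.

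Passing over predicted genes, those whose 8 values, centred on their mean, lay nearest to those of Plppr1 were Erdr1, Acer3, Mir1931, Fam168a and Sv2c. Their root mean square distances over the 8 arrays were 0.29, 0.44, 0.52, 0.59 and 0.59. Acer3 is a ceramidase and Sv2c a synaptic vesicle protein. Their differences were 2.41, 2.02, 1.82, 1.66 and 1.69. All had to lie below that of Plppr1, which was chosen for the largest difference of all genes. The probe set annotated to Mir1931 was dim on control arrays (4.76 to 5.10) and does not read a mature microRNA. None of the 5 lies on chromosome 4, and Acer3 and Fam168a both lie on chromosome 7. This likeness is a description of 8 arrays that fall into 2 groups.

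The lipids that Plpp enzymes degrade are made, sensed and recycled by other genes, and most of these did not pass. Of 57 such genes listed, 53 were measured: 1 rose, 2 fell and 50 did not pass, so that 5.66% passed against 2.00% of all genes. The median difference was -0.04 over the list and 0.00 over all genes, and 15 of the 53 had an unadjusted p under 0.05, against 18.2% of all genes.

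Cerk, which makes ceramide 1-phosphate, a substrate of the phosphatases, rose 1.36-fold. It read 9.99, 10.09, 9.95 and 9.68 in control and 10.32, 10.46, 10.42 and 10.29 in transgenic ganglia (SE of the difference of 0.44 was 0.09; adjusted p = 0.0322 by limma). The groups did not overlap. Dgke, a diacylglycerol kinase that makes phosphatidate, fell 1.29-fold. It read 8.27, 8.23, 8.35 and 8.20 against 7.78, 7.96, 7.92 and 7.91 (difference -0.37, SE 0.07, adjusted p = 0.0201), again without overlap. A further probe set read -0.67 (adjusted p = 0.00291 over probe sets) and the last 0.30 (0.203). Lpcat2, which reacylates lysophospholipids and is abundant in macrophages, fell 1.41-fold. It read 8.46, 8.40, 8.43 and 8.39 against 7.87, 7.75, 7.89 and 8.20 (difference -0.49, SE 0.09, adjusted p = 0.0183), while its other probe set read 0.18 without passing.

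The 3 differences moved little when single arrays were left out, to 0.36 to 0.50 for Cerk, -0.39 to -0.33 for Dgke and -0.58 to -0.43 for Lpcat2, but calls were lost with the smaller groups. Over the list, 0 genes passed limma with control 1 left out and likewise with transgenic 1 or transgenic 3 left out (8, 11 and 11 at an unadjusted p under 0.05). Leaving out transgenic 2 or transgenic 4 left 1. Over all alternatives the adjusted p ranged from 0.0136 to 0.265 for Cerk, from 0.00299 to 0.259 for Dgke and from 0.00299 to 0.340 for Lpcat2.

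The receptors did not pass limma: 0 of 5 measured for lysophosphatidate and 0 of 5 for sphingosine 1-phosphate, with 2 in each at an unadjusted p under 0.05. The smallest p among them belonged to Lpar4 (difference -0.26, SE 0.10, adjusted p = 0.207) and to S1pr1 (0.40, SE 0.12, adjusted p = 0.114). Lpar4 read 5.58 to 5.85 in control and 5.28 to 5.62 in transgenic ganglia, so all its transgenic values were dim and its control values at or near the dim range. Its other probe sets differed by 0.08 and -0.13 without passing. S1pr1 read 8.45 ± 0.16 in control and 8.85 ± 0.22 in transgenic ganglia (n = 4 each). Of 4 genes that produce lysophosphatidate 0 passed and 0 had an unadjusted p under 0.05, the smallest being that of Pla1a (-0.23, SE 0.11, adjusted p = 0.296). Enpp2, the main lysophosphatidate-producing enzyme of the blood, and Lpar5, Dgkb and Dgkg were not analysed here, as no probe set was assigned to them alone. Of 12 other lipid phosphate phosphatases 0 passed and 3 had an unadjusted p under 0.05. Among them Plpp7, a relative of the Plpp genes that is not known as an active phosphatase, had the smallest p (0.37, SE 0.10, adjusted p = 0.101).

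**Figure D5:**
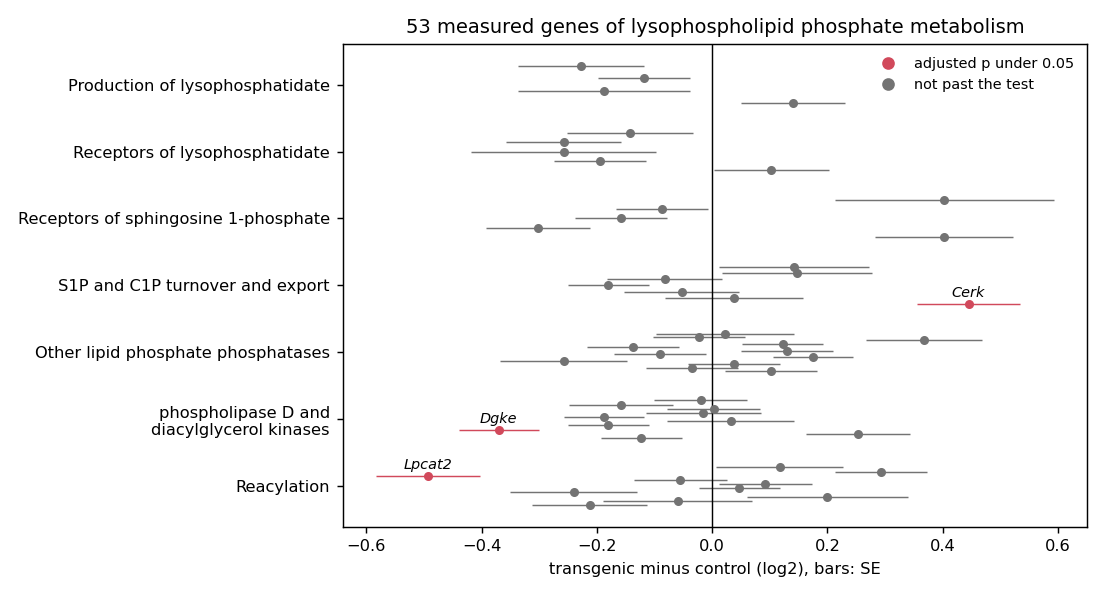
Transgenic minus control difference (log2, bars are SE, 4 arrays per group) of 53 measured genes of lysophosphatidate and sphingosine 1-phosphate (S1P) and ceramide 1-phosphate (C1P) metabolism, by role. Cerk (0.44), Dgke (-0.37) and Lpcat2 (-0.49), in red, passed the test; the remaining 50 did not.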

How the data were processed

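The authors deposited log2 values, 1 per probe set and array. The submitters' processing notes name RMA and affy, without a version. RMA is defined by background subtraction, quantile normalization over arrays and median polish, so a shift shared by most genes would be removed. Of 45101 probe sets, 64 Affymetrix controls were left out. The platform annotation gave 34945 a single symbol, 932 several and 9160 none; the 18193 genes were each represented by the brightest of its single-symbol probe sets (mean of 8 arrays). Gene identifiers of 34737 probe sets matched the RefSeq table of GRCm38.p6, used for gene order and names. Its coordinates are printed for promoter sequences alone, since no build is given for the arrays.

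Genes and probe sets were fitted separately with limma 3.58.1 in R 4.3.3 (lmFit, eBayes, group as the only term, two-sided) with Benjamini-Hochberg adjustment over 18193 genes or 45037 probe sets and a threshold of 0.05. SE is that of the moderated fit. The function was tested on simulated data. The members, the lists, the alternatives and the rules were chosen with earlier results of these data known. Named are the members, list genes and neighbours past the test, the smallest p in each role, and the 5 genes nearest to Plppr1; for reacylation, diacylglycerol and ceramide 1-phosphate genes the smallest p belongs to a gene past the test. Same-numbered arrays were checked for shared deviations and are not treated as pairs. The number of arrays limits the precision. Figures were drawn with matplotlib 3.10.9.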

Additional observations from a re-analysis of the deposited data

Results flagged for a closer look

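Over the 18 family probe sets and both groups, 36 sets of 4 values were read for an array far from the others, which chance alone gives in about 1 of 20 sets. The gap to the nearest array, as a share of the group's range, exceeded Dixon's 95% critical value in 2 of them. At Plppr1 1436733_at, transgenic replicate 2 read 8.76 and the next array 8.88, a gap of 0.857 of the range, in a group whose values span only 8.76 to 8.90. At Plppr3 1454761_at, control replicate 4 read 7.80 and the next 8.04, also 0.857 of the range.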

How the results depend on the processing

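The family's values are given as ranges, since this contrast chose it. Over the alternatives the difference was 2.68 to 2.93 at Plppr1 1436733_at, 1.46 to 2.06 at Plppr1 1436734_at, 0.52 to 0.70 at Plppr1 1439731_at and 0.64 to 0.85 at Plpp3 1448908_at. Plppr1 1439731_at lost its call without the arrays highest in Gh (control replicate 3, transgenic replicates 3 and 4) and without those with Xist signal. As the mean of its 4 probe sets Plppr1 differed by 1.30. Of the 18 probe sets, 2 passed when those below log2 8 in both groups were left out, where fewer were tested. Taken at its most variable probe set Plpp3 differed by 0.80, and as a mean of both by 0.38.

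Counts of genes past the test moved from 364 to 181 at an adjusted p under 0.01, 697 with the most variable probe set, 227 without control replicates 1 and 4 (lowest Gfap), 171 without control replicates 1 and 3 (highest Acta1), 98 without the arrays highest in Gh, 213 without those with Xist signal, and 229 to 349 leaving out 1 array. Counts of probe sets moved from 1236 to 621 at 0.01, 701 without those below log2 8, 760, 649 and 392 without the arrays by Gfap, Acta1 and Gh, and 755 to 1271 leaving out 1 array. Over the 53 measured lipid metabolism genes, the count moved from 3 to 0 at 0.01 or without the arrays by Gfap, Acta1 or Gh. At an unadjusted p under 0.05 (limma), 15, 7, 12 and 12 of them remained in these settings. The count was 1 with the mean of probe sets or without Xist arrays, and 0 to 3 leaving out 1 array. Of neighbouring genes, 0 passed without probe sets below log2 6 or 8 or with 5 genes on each side (16, 10 and 9 at an unadjusted p under 0.05), 2 with the mean of probe sets, 3 with the most variable one, and 1 to 3 leaving out 1 array. The causes of these moves were not tested. Fits that leave out arrays or filter probe sets also hold fewer of them, and the part of that was not tested either.

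With the replicate number as a block, 672 genes and 2017 probe sets passed. Deviations of same-numbered arrays correlated at 0.251, 0.015, 0.298 and 0.336. Those of differently numbered arrays ranged from -0.268 to 0.274, and most were negative. Deviations from a group's mean cancel out within the group, so positive same-numbered pairs draw the other pairs towards negative values. Nothing further is read from that majority. Apart from replicate 2, the same-numbered pairs lay near or above the top of the range of the differently numbered ones. Whether same-numbered arrays shared a preparation was not tested, and the main fit takes the numbers as names. The block left 4 family probe sets and 1 neighbour past the test, and 4 lipid metabolism genes.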

Other observations

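Probe sets of single genes also disagreed elsewhere in lipid metabolism. At Agpat5, an acyltransferase that turns lysophosphatidate into phosphatidate and is named here after its values were seen, the brightest probe set read 0.05, another was higher by 0.56 in transgenic ganglia (adjusted p = 0.00121, limma, all probe sets) and the last fell by 0.69 (adjusted p = 0.0173).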
